A study of Homo sapiens with 11 samples.

Results

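The RNA recovered with the R101H form of RPS19 is described here from the 2 deposited lists of regions enriched over size-matched input, with all of their rows as members. They hold 93331 windows in 8133 named genes and 252 repeat elements, of 195300 window rows and 561 repeat rows in all lists of the series. RPS19 is a protein of the head of the small (40S) ribosomal subunit, needed for maturation of the 18S ribosomal RNA, and its gene is the one most often altered in Diamond-Blackfan anemia, an inherited failure of red cell production. Proteins of the translating ribosome lie close to the coding sequence of mRNAs, to the ribosomal RNAs and to tRNAs. Ultraviolet crosslinking followed by immunoprecipitation and sequencing (eCLIP) recovers RNA fragments crosslinked to the precipitated protein and sets them against an input of fragments of the same size.

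The study used HEK293T, a human embryonic kidney line that carries the SV40 large T antigen. Of its 11 samples, 2 are immunoprecipitates (IP) with a V5 antibody from cells transfected with a plasmid for V5-tagged RPS19 R101H, and 3 are size-matched inputs from crosslinked cells that carried no plasmid. The other samples are IPs of the wild-type protein (WT) and of the substitution R62W. The tagged protein was made beside the cells' own RPS19, which all groups kept. IP and input therefore differ in the plasmid as well as in the precipitation, and the parts of these 2 differences in a value cannot be told apart. Nothing in the labels says that the replicates were separate cultures.

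Each window is a short stretch of a transcript (median 92 bases, GRCh38) with pooled IP and input read counts. Enrichment is the authors' own value for each window, a log2 odds ratio of IP against input, of which the tables keep the mean and both extremes among replicates. Every window and repeat element was recorded as enriched in 2 replicates, so the lowest and the highest are the 2 replicate values, although which replicate gave which is not recorded. The list was made by selecting on enrichment, so all enrichment values are descriptions and carry no test. The highest q of the list was 0.200, and 43148 of the 93331 windows (46.2%) had a highest q of at most 0.05 in the authors' test. The windows held a median of 48 IP and 11 input counts, 43.9% had fewer than 10 input counts, and 1058 (1.13%) had none. The IP counts over the list summed to 7221756 and the input counts to 1781840. The totals of the libraries are not in the tables, so a ratio of counts is not adjusted for depth.

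The median window had a mean log2 odds ratio of 2.00, with quartiles of 1.58 and 2.53 and a range from 0.39 to 9.81. The medians of the lower and of the higher replicate value were 1.66 and 2.30. The 2 replicate values of a window differed by a median of 0.52, by under 1 in 76.3% of windows and by over 2 in 5.27%. Agreement was closer where counts were higher. The median difference was 0.58 in the 9041 windows with up to 20 IP counts and 0.33 in the 664 windows with over 500. The median log2 odds ratio moved the same way, from 2.41 to 1.45 over those classes. The medians of the annotation classes and of the gene lists below are therefore also given at 50 to 100 IP counts.

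Start sites with a run of pyrimidines mark the mRNAs of the translation machinery (terminal oligopyrimidine or TOP mRNAs), whose first base is a C followed by other pyrimidines. Their starts are shown first, since they include RPS19 itself and EEF1A1, the gene with most IP counts in the list. RefSeq gives 1029 of 34961 transcript starts (GRCh38.p14) inside a listed window. Of these, 88 (8.55%) began with C and 4 pyrimidines (read on the strand of the transcript), against 1426 of all 34961 starts (4.08%). A start must be expressed to be listed, and expression was not measured here, so nothing is read from this difference. The 6 sequences below, from RefSeq, belong to the members of the gene lists used here that had the most IP counts at such a start. Each begins upstream of the start, and the capitals mark the first transcribed bases.
EEF1A1: gccgtgaacgttCTTTTtcgcaacgggttt
RPLP2: cgtcggcgccttCCTTTtcctccctgtcgc
RPS19: aaccccgtcgttCCCTTtcccctggctggc
RPL35: cccgcctacttcCTCTTtccctcggagcgg
RPS14: ccccctcccactCTCTCtttccggtgtgga
RPL39: ttccgccagcttCCCTCctcttcctttctc

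EEF1A1, which encodes the elongation factor that brings aminoacyl-tRNA to the ribosome, had 30598 IP and 1532 input counts in its start window, at 3.31 (replicates 3.18 and 3.43). The start window of RPS19 stood at 1.05 (0.71 and 1.38) with 2609 IP and 625 input counts. That of RPLP2, a protein of the large subunit stalk, was at 1.00 (0.72 and 1.28) with 3958 and 996 counts. RPL35 and RPL39, proteins of the large subunit, stood at 0.85 (0.58 and 1.12) and 0.65 (0.54 and 0.76), and RPS14, a small subunit protein, at 1.10 (0.56 and 1.65). Apart from EEF1A1, these start windows lay below the list's median of 2.00 while holding far more than the median of 48 IP counts. Over all start windows, those with the C and pyrimidine start had a median of 1.24, against 1.55 in the others, and they held more reads, with a median of 187 IP counts. At 50 to 100 IP counts, a restriction chosen after seeing the data, the order was turned, at 1.68 in 10 windows with this start and 1.60 in 273 without it.

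RPS19 had 15 windows on chromosome 19 with 180885 IP and 4270 input counts, or 2.50% of all IP counts in the list. The plasmid carries RPS19 coding sequence, so in the 7 coding windows, which held most of these counts, RNA from the plasmid and RNA from the cells' own gene cannot be told apart. A window annotated as holding a start codon of one of the gene's transcripts (chr19:41869081-41869180) had 62515 IP and 1339 input counts, the most IP counts of any window in the list, and stood at 4.53 (4.36 and 4.71). The coding window chr19:41861162-41861212 had 35886 and 621 counts at 5.59 (5.55 and 5.63). The highest value of the gene lay outside coding sequence, beside a 3′ splice site (chr19:41860675-41860774), with 5100 IP and 35 input counts at 6.89 (6.84 and 6.93). The last coding stretch, with the stop codon (chr19:41871351-41871377), had 29 IP and 2 input counts at 3.17 (2.46 and 3.89). No window of the RPS19 3′ UTR was listed.

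EEF1A1 had 15 windows on chromosome 6 with 182233 IP and 2699 input counts, or 2.52% of the list's IP counts. Of these, 11 were annotated as 5′ UTR and 4 as exons of non-coding isoforms, and none lay in coding sequence or the 3′ UTR. A run of 14 touching windows covered chr6:73520027-73521287 on the minus strand. The 3 windows upstream of RefSeq's start (73521032) had 1947, 5928 and 6944 IP counts against 5, 15 and 49 input counts, at 7.41, 7.61 and 6.86. The start window was the one with most input, and its 3.31 was lower than its neighbours' on both sides, as the next windows downstream stood at 7.07 (6.88 and 7.25) and 6.46 (5.94 and 6.97). The run ended at 2.55 (2.13 and 2.98) with 1085 IP and 242 input counts. In 12 of the 14 windows both replicate values were above those of the start window. The promoter region of EEF1A1 with its first intron is widely used to drive transgenes. The labels do not say which promoter the plasmids carry, and its part in these counts was not tested.

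**Figure D1:**
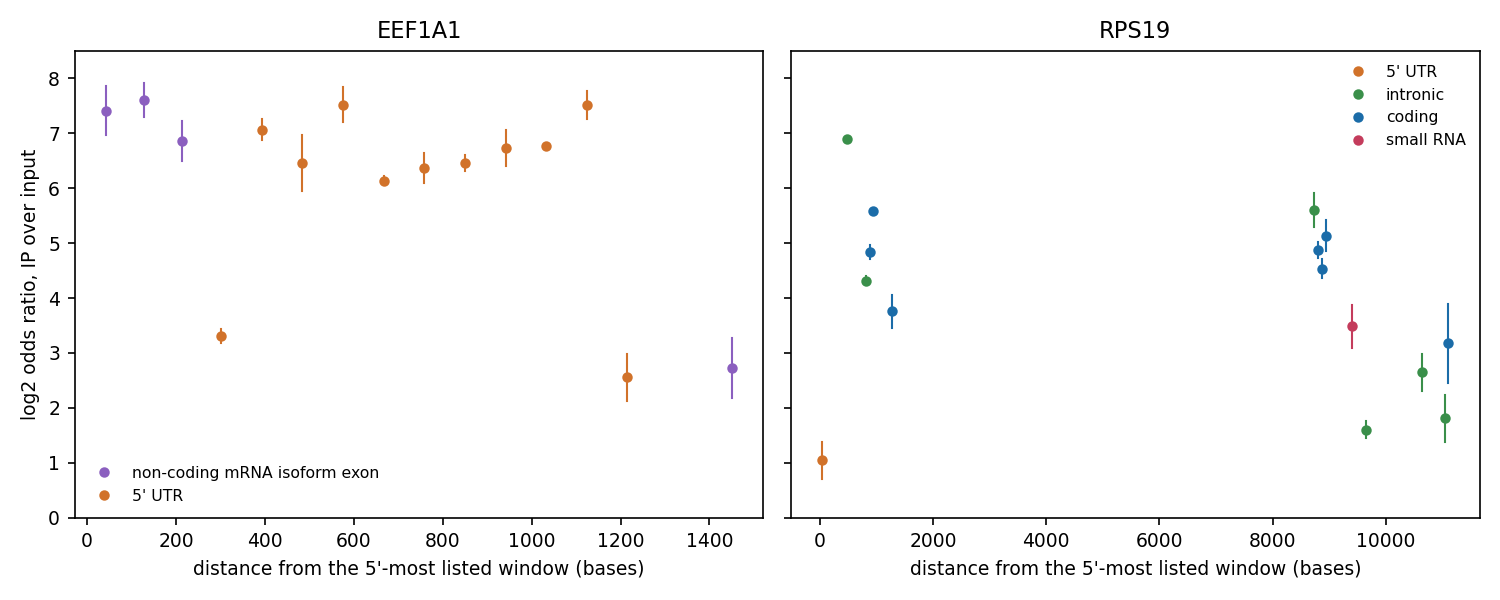
Log2 odds ratio of R101H IP over input (vertical axis) of the 15 windows each of EEF1A1 and RPS19 against the distance in bases from the listed window nearest the 5′ end. Points are the mean of 2 replicates, lines join both replicate values and colours give the annotation. In EEF1A1 the start window lies at 3.31 between windows from 5.94 to 7.92, and in RPS19 the 5′ UTR window lies at 1.05 below the coding windows.

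Coding sequence made up most of the list. Coding windows, those over start and stop codons included, numbered 50152 (53.7%, exact Clopper-Pearson 95% interval 53.4% to 54.1%) in 6529 genes. The 3′ UTR had 24541 (26.3%, 26.0% to 26.6%), introns with their splice site windows 10010 (10.7%, 10.5% to 10.9%) and the 5′ UTR 3618 (3.88%). Exons of non-coding mRNA isoforms held 2298, lncRNA exons 2264, pseudogene exons 360 and small RNAs 88. These intervals cover counting error only. The windows tested but not listed are not given, so the shares have no background share beside them. Coding windows held 3895855 of the 7221756 IP counts and 946612 of the 1781840 input counts of the list. Pooled IP over input counts were 4.12 in coding windows, 3.79 in the 3′ UTR, 5.26 in introns and 5.77 in the 5′ UTR, against 4.05 over the list. Without EEF1A1 and RPS19 the 5′ UTR had 4.30. By IP counts the order of the smaller classes was different, with 8.45% in the 5′ UTR and 5.73% in introns. The EEF1A1 windows alone held 182233 of the list's IP counts, and without EEF1A1 and RPS19 the 5′ UTR had 6.42% of IP counts and introns 5.90%.

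**Figure D2:**
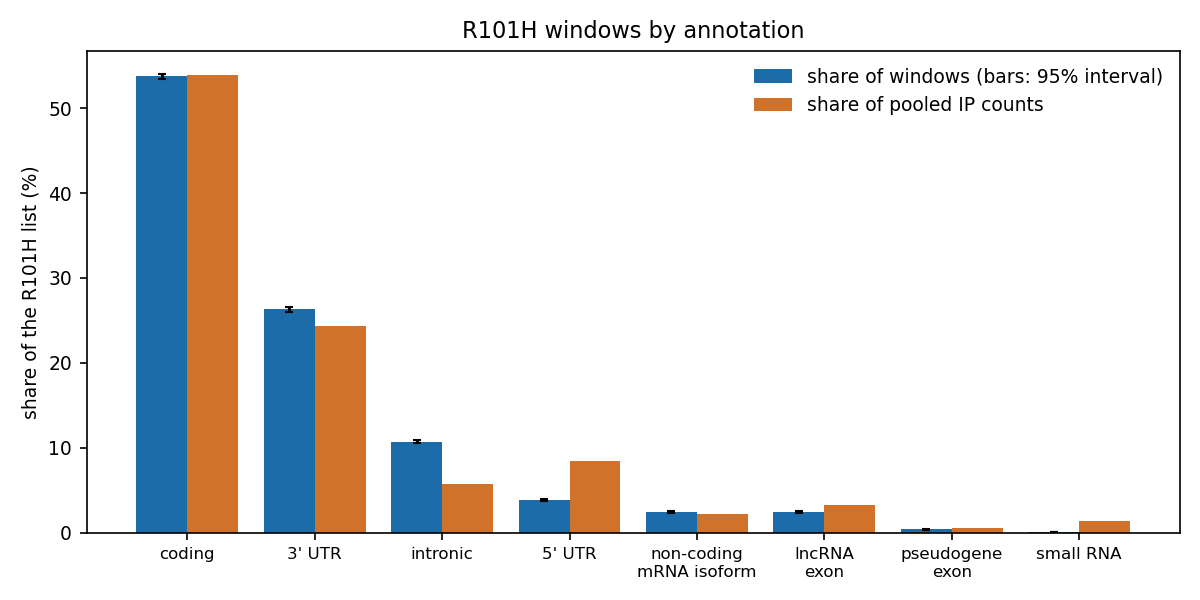
Share of the 93331 windows (blue, with exact 95% intervals) and share of the 7221756 pooled IP counts (orange) in each annotation class, in percent. Coding sequence has 53.7% of windows and 53.9% of counts, and the 5′ UTR has 3.88% of windows and 8.45% of counts.

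Within the main classes, the enrichment of a listed window was highest in introns and lowest in the 5′ UTR. The median log2 odds ratio was 1.93 in coding windows (lower and higher replicate 1.60 and 2.23), 2.05 in the 3′ UTR (1.70 and 2.35), 2.31 in introns (1.89 and 2.64) and 1.70 in the 5′ UTR (1.41 and 1.96). Intronic windows had fewer counts, with medians of 28 IP and 5 input counts, and 5.53% of them had no input count at all. At 50 to 100 IP counts the order was kept, at 2.00 in introns, 1.90 in the 3′ UTR, 1.80 in coding sequence and 1.66 in the 5′ UTR. With at least 10 input counts the intronic median was 1.63, below that of the 3′ UTR at 1.73 and of coding windows at 1.65. The interquartile ranges of these 4 classes overlapped, at 1.53 to 2.44 in coding windows and 1.31 to 2.17 in the 5′ UTR. Windows over the 1602 start codons stood at 1.59 and those over the 2716 stop codons at 1.82, against 1.95 in the 45821 windows inside coding sequence. At 50 to 100 IP counts these 3 kinds had 1.55, 1.71 and 1.81.

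The deposited log2 odds ratio is relative to a baseline that differs with the G and C content of the window, and the order of the classes changed without it. This baseline was taken as the log2 ratio of pooled IP to input counts less the log2 odds ratio, in windows with at least 50 input counts. Within each of the authors' 10 bins of this content it was nearly constant, with an interquartile range of at most 0.03. It ran from -0.66 in the bin of 0.29 to 0.33 to 1.02 in windows with over 0.58 of G and C, a span of 1.68. Among windows with at least 10 input counts, the median log2 odds ratio fell from 1.86 in the bin poorest in G and C to 1.47 in the richest. The median log2 ratio of counts in the same windows went the other way, from 1.26 to 2.49. 5′ UTR windows had a median G and C fraction of 0.62, coding windows 0.50 and 3′ UTR windows 0.44. By the ratio of counts, the 5′ UTR had the highest median of the 4 classes, 2.13 against 1.82 in coding sequence, 1.78 in introns and 1.71 in the 3′ UTR. By the deposited odds ratio in the same windows it had the lowest, at 1.48. The baseline is by definition the difference of the 2 measures, and the list was selected on the odds ratio. For the same odds ratio, a window rich in G and C has a higher ratio of counts. Nothing about binding is therefore read from the change of order.

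**Figure D3:**
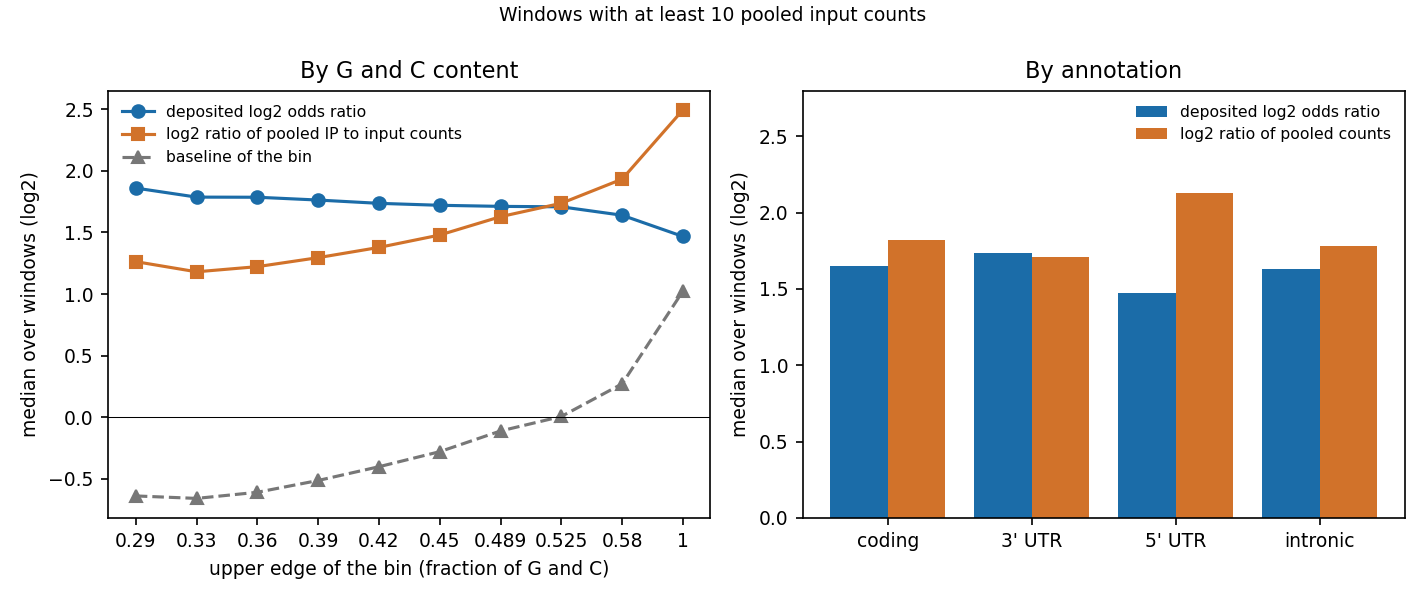
Windows with at least 10 pooled input counts. The left panel gives the median deposited log2 odds ratio (blue) and the median log2 ratio of pooled counts (orange) in 10 bins of G and C content, with the baseline between them from windows with at least 50 input counts (grey), and the right panel gives both medians by annotation. The count ratio rises to 2.49 in the richest bin while the odds ratio falls to 1.47, and the 5′ UTR moves from the lowest median (1.48) to the highest (2.13).

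The same contrast showed within genes. In 1205 genes with at least 5 coding and 5 3′ UTR windows, the 3′ UTR median exceeded the coding median in 907 (75.3%), by a median of 0.23. By the ratio of counts, over windows with at least 10 input counts, it did so in 339 of 636 genes (53.3%), by 0.03. Intronic windows exceeded the coding windows of their gene in 383 of 445 genes (86.1%) by the odds ratio, by a median of 0.56, and in 36 of 75 (48.0%) by the ratio of counts. The 5′ UTR was higher in 33 of 88 genes (37.5%) by the odds ratio and in 28 of 48 (58.3%) by the ratio of counts. The sets of genes and of windows differ, since the second measure needs at least 10 input counts per window. The parts of this filter and of the baseline in the change cannot be told apart here. Over the whole list, the filter alone brought the intronic median log2 odds ratio to 1.63, against 1.65 in coding windows.

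The 3 windows with the highest values were intronic and had no input counts. PRKCA, which encodes a calcium-dependent protein kinase, had the highest (chr17:66757027-66757126), with 909 IP and 0 input counts at 9.81 (8.95 and 10.66). ETV5, an ETS family transcription factor, had 791 IP and 0 input counts in an intronic window (chr3:186107741-186107839) at 8.93 (7.98 and 9.88). An intronic window of the keratin gene KRT19 (chr17:41526939-41527035) had 455 and 0 counts at 8.40 (7.41 and 9.40). Against a floor of 3 counts over the pooled input, these windows had at least 303-, 264- and 152-fold more IP than input counts. None of the 3 touched another listed window. Near a 5′ splice site of UBTD2 there were 901 IP and 2 input counts at 7.67 (6.58 and 8.75), and in an intron of SNX6, a sorting nexin, 1843 and 8 at 7.13 (5.44 and 8.81). The other 5 of the 10 highest windows belonged to EEF1A1.

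With at least 10 input counts, 9 of the 10 highest windows were those of EEF1A1 and the remaining one was the splice site window of RPS19. In coding sequence, apart from RPS19, the highest windows were in SPIN4, a reader of histone methylation, at 6.12 (5.31 and 6.92; 983 IP and 11 input counts), HERC2, a ubiquitin ligase, at 4.65 (4.62 and 4.68) and PIEZO1, a mechanically gated channel, at 4.56 (2.99 and 6.13; 203 and 13). High windows of the 3′ UTR were in R3HDM4 at 4.88 (4.74 and 5.02; 386 and 10), the apoptosis effector BAX at 4.75 (4.33 and 5.16; 256 and 11), NPIPA7 at 4.75 and GIGYF1, a translational repressor, at 4.66. In the 5′ UTR, ARHGEF11 at 4.22, ADGRL1 at 4.16, NR2F1 at 4.07 and UBAP2L at 3.95 followed EEF1A1. Intronic windows of FRAS1 (4.73; replicates 3.13 and 6.33), NBPF14 (4.14), IP6K2 (3.86) and COG5 (3.80) followed RPS19. Among exons of non-coding genes, the highest were in copies of the polycystin gene PKD1, namely PKD1P6 at 5.33, PKD1P1 at 5.28, 2 windows of PKD1P3 at 4.94 and 4.77, and PKD1P4 at 4.52. These copies are nearly identical to each other, so their reads could be divided between them in counting.

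Single windows showed how far the 2 replicates could part. Of the windows with at least 100 IP counts, those with the closest values lay in coding sequence of NPM3 with a mean of 1.31, U2AF2 with 1.91, RECQL4 with 0.87, YLPM1 with 1.96, and DHX30. The widest was a coding window of HECTD4, at 1.58 and 6.68 with 106 IP and 6 input counts. TNRC18 stood at 1.38 and 6.42, RABL6 at 1.74 and 6.70, SETD1A at 3.28 and 8.03 and EHMT2 at 2.05 and 6.51. All 5 wide windows had 10 or fewer input counts, and the 5 close ones had 25 to 38.

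Some mRNAs held many windows each, in counts that are not adjusted for transcript length. The 2940 genes with at least 10 windows held 80.5% of the list, the median gene had 6, and 1356 genes had 1. MDN1, a giant ATPase of 60S subunit assembly, had 208 windows, 195 of them coding, with a median of 2.59 (2.25 and 2.92). The ubiquitin ligase genes HUWE1 with 204 and MYCBP2 with 190 had medians of 2.26 and 3.16, and 95.3% of the MYCBP2 windows had a highest q of at most 0.05. MACF1, a crosslinker of actin and microtubules, had 204 windows at 2.66, HERC2 184 at 3.17, RNF213 179 at 2.69 and HECTD4 170 at 2.72. KIAA1109 had 166 at 3.35, the histone methyltransferase gene KMT2A 152 at 2.05, BIRC6 147 at 2.56 and the transcriptional repressor gene SPEN 146 at 2.75. In these genes the majority of windows were coding. The make-up differed in the remaining genes of the 15 with most windows, with 129 of 176 windows intronic in NBPF20, 80 of 169 in CAPN15, 69 of 156 in ADGRL1 and 44 of 166 in PRRC2B. The median of NBPF20 was 4.34 (3.65 and 4.93), the highest of the 15.

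After EEF1A1 and RPS19, the genes with most IP counts were HUWE1 with 47123 IP and 8253 input counts, PRRC2B with 34459 and 6492, PRRC2A with 32798 and 6081, and the fatty acid synthase gene FASN with 32763 and 4981. Windows that also name MIR6797, a microRNA gene inside RPS19, are part of the RPS19 count. The nuclear lncRNA MALAT1 had 29810 IP and 18318 input counts, and its 26 windows had a median of 0.90 (0.73 and 1.13), well under the list's 2.00. The counts over WDR74, 23464 IP and 23476 input, were nearly all those of 1 window that it shares with RNU2-2P, a gene of the spliceosomal U2 RNA, with 23306 and 23441 counts at 0.52.

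Listed windows often touched each other. Of all windows 53.7% adjoined another listed window on the same strand without a gap, more often in the 3′ UTR (67.3%) than in coding sequence (49.2%). Touching was judged on the genome, so coding windows of different exons do not touch across an intron. Exon structure therefore enters these shares and the runs below, which were not adjusted for it. There were 259 runs of 10 or more windows, with 3478 windows in all, and 57.4% of these were 3′ UTR. The longest run had 41 windows over 4005 bases of NSD1, a histone methyltransferase gene (chr5:177293832-177297836), with 17 coding and 24 3′ UTR windows and a median of 2.22 (1.86 and 2.48). Runs of 40 windows lay in CRAMP1 and PRRC2B, of 32 in the histone demethylase gene KDM2A and of 30 in the chromatin remodelling gene ARID1A. Each of these 5 runs crossed the stop codon. KDM2A had the highest median among them, 3.03 (2.54 and 3.38), with 30 of its 32 windows in the 3′ UTR. The run of 28 in WDR6 was coding in 26 windows and that of 27 in CAPN15 was intronic in 17. GIGYF1 with 27, ZNF276 with 26 and MLXIP with 25 made up the other 3 of the 10 longest, with 23, 23 and 25 windows in the 3′ UTR.

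The mRNAs of the translation machinery had enrichments below the median of the list, and so did the other gene lists described here, with the 60S assembly factors closest to it. At 50 to 100 IP counts, all windows had a median of 1.83. Small subunit proteins stood at 1.65 (30 windows), large subunit proteins at 1.66 (32 windows) and the elongation factors and other TOP mRNAs at 1.29. Initiation factors stood at 1.61, aminoacyl-tRNA synthetases at 1.53, chaperones at 1.50, cell cycle and p53 target genes at 1.63 and non-coding RNAs at 1.61. Diamond-Blackfan anemia genes stood at 1.44 from only 11 windows, and erythroid and iron genes at 1.44 from 14. Of 19987 RefSeq protein-coding genes on the chromosomes of the list, 7525 (37.6%) had a window. Which genes HEK293T cells express was not measured here, and an mRNA must be expressed to be listed, so nothing is read from how many members of a list had windows. Of 32 small subunit ribosomal protein genes 30 had windows, with a median of 1.73 over 149 windows, and 47.7% of these windows had a highest q of at most 0.05 against 46.2% of all. Without RPS19 the median was 1.68 over 134 windows, with 22021 IP and 9571 input counts, and 44.8% of these windows had a highest q of at most 0.05. After RPS19, RPS6 had most windows (13, median 1.73), followed by RPS2 with 8 at 1.70, RPS9 with 8 at 1.46 and RPS28 with 8 at 2.39. Of 47 large subunit genes 45 had windows, at 1.62 over 210, led by RPL3 with 13 at 1.34, RPL10 with 12 at 1.69 and RPL23A with 10 at 1.82. The highest large subunit window lay in an intron of RPL36 at 4.46, with 21 IP and 0 input counts. Of 18 elongation factors and other TOP mRNAs 17 had windows, at 1.49, or 1.46 without EEF1A1. EEF1D, a subunit of the exchange factor of eEF1A, had 60 windows of which 37 were intronic, EIF4B 33 and EIF5A 32.

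Initiation factors had windows in 35 of 36 genes, where 37.6% of RefSeq protein-coding genes had one, at a median of 1.66 over 507 windows. EIF6 was the factor gene without one. The scaffold genes EIF4G1 with 73 windows at 1.84 and EIF4G3 with 60 at 1.97, and EIF3A with 38 at 1.68, had most. The highest window was a 3′ UTR window of EIF4E2, a cap-binding repressor of translation, at 4.83 (4.55 and 5.10; 28 IP and 0 input counts). Of 37 aminoacyl-tRNA synthetase genes 32 had windows, at 1.77, and 28.3% of their windows had a highest q of at most 0.05 against 46.2% of all. The mitochondrial enzyme gene VARS2 had 56 of these 279 windows, at 2.35 (1.92 and 2.62), QARS1 27 windows and AARS2 21 at 1.79. The highest of the list was an intronic window of RARS2 at 4.27 (2.58 and 5.96). All 27 chaperone genes had windows, at 1.59, led by CCT3 and HSPA1B with 20 each and DNAJC7 with 18.

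Assembly factors of the 40S subunit were also below the median of the list, and those of the 60S subunit lay close to it. Nothing is read from how many assembly factors had windows, where 37.6% of RefSeq protein-coding genes had one. The small subunit processome and 40S maturation factors had windows in 46 of 50 genes, at 1.85 over 423 windows, with HEATR1 (49 at 1.54), BMS1 (30 at 2.00) and TBL3 (27 at 2.13) in front, and stood at 1.67 at 50 to 100 IP counts. The 60S factors had windows in 47 of 49 genes, at 1.96 over 693 windows, against 2.00 over the list. With at least 10 input counts they stood at 1.69, against 1.66 over all such windows. A highest q of at most 0.05 was reached by 49.6% of the 60S factor windows, against 46.2% of all. MDN1 held 208 of the 693 windows, and RRP1B with 39 at 1.72 and PELP1 with 36 at 1.61 came next. Without MDN1, an omission chosen after seeing the data, the 60S median was 1.76 over 485 windows, and at 50 to 100 IP counts it was 1.77 with MDN1 and 1.49 without it. The Diamond-Blackfan anemia genes, most of which are ribosomal protein genes, had windows in 21 of 23, at 1.74, or 1.62 over 88 windows without RPS19. RPL15 with 9 windows at 1.12 and RPL35 with 8 at 1.90 followed RPS19, and GATA1 and RPS10 had none.

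Of 25 cell cycle and p53 target genes 21 had windows, where 37.6% of RefSeq protein-coding genes had one, at 1.92 over 462. MDM2, the ubiquitin ligase of p53, had 62 at 1.41 (31 in the 3′ UTR), FDXR 61 at 2.57 (42 intronic), and the apoptosis gene BBC3 43 at 2.45 (23 intronic). The antiproliferative gene BTG2 had the highest median of the list, 3.55 over 31 windows, and its highest window, in the 3′ UTR, stood at 5.32 (4.88 and 5.75; 221 IP and 6 input counts). Of 26 erythroid and iron genes 14 had windows, at 1.94 over 86, led by the transferrin receptor gene TFRC with 15 and the haem synthesis genes PPOX and UROD with 13 each. The globin genes, KLF1, TAL1 and EPOR had none, and absence from the list is not a measured 0. HMOX1 had the highest window of that list, at 4.45 with 19 IP and 0 input counts.

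**Figure D4:**
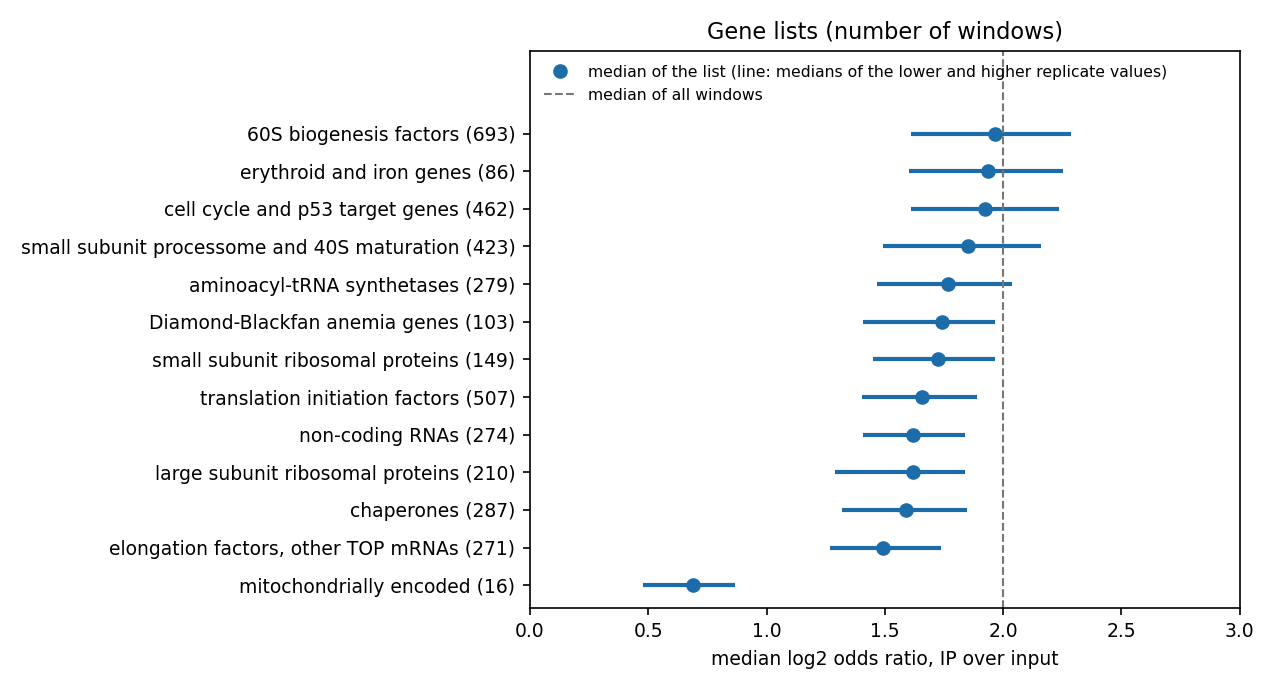
Median log2 odds ratio of the windows of each gene list with over 10 windows, with a line from the median of the lower replicate values to that of the higher ones and the number of windows in brackets. The median of all windows (2.00) is dashed. The lists lie between 1.49 and 1.96 apart from the mitochondrially encoded transcripts at 0.69.

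Non-coding RNAs differed widely among themselves. Of 37 on the list 23 had windows, at 1.62 over 274. NORAD, a cytoplasmic lncRNA, had 47 windows at 3.09, the highest gene median of the list, with 13923 IP and 2191 input counts. NEAT1, the scaffold of nuclear paraspeckles, had 55 at 1.61 and TUG1 31 at 1.36. Replication-dependent histone mRNAs, which end in a stem-loop in place of a poly(A) tail, had 3 windows in 2 of 54 genes (H3C6 and H2BC15). These windows held 60 IP counts in all. Of RefSeq protein-coding genes, 37.6% had a window. Expression of the histone genes was not measured here, so nothing is read from how many had windows. A part of the stem-loop in this was not tested.

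The mitochondrial genome had 17 windows, all on the plus strand. The 16 windows in coding sequence of 7 of the 15 mitochondrial genes on the list had the lowest median of any list, 0.69 (0.48 and 0.87), with 20184 IP and 15253 input counts. MT-ND4 had 4 at 0.62, and MT-CO1 3 at 0.76 with the highest of them at 1.33 (1.15 and 1.51). The remaining window stood apart. It covered the tRNA for histidine, MT-TH (chrM:12138-12206), with 9827 IP and 1198 input counts at 3.52 (3.03 and 4.01), and its replicate values did not overlap those of any of the 16 others.

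Some listed windows overlapped microRNA hairpins. Of 1558 RefSeq hairpins, 44 overlapped a listed window of the same strand, 12 of them over their whole length, with a median of 1.85 over 47 pairs. The overlap was as short as 2 bases. Most of these windows were annotated as introns, exons, UTRs or coding sequence of host genes, so reads of a precursor and of its host transcript cannot be told apart. Nothing is read from how many hairpins were overlapped. The mature sequences below are shown for the hairpin with the highest value and the neighbour that shares its seed, for a hairpin covered whole, and for the hairpin inside RPS19. Each lies whole inside a listed window, comes from RefSeq and has the seed (bases 2 to 8) in capitals. miR-222-3p and miR-221-3p share the seed.
miR-222-3p: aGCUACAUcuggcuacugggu
miR-221-3p: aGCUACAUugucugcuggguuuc
miR-16-5p: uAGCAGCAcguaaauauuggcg
miR-6797-5p: aGGAGGGAaggggcugagaacagga
miR-6797-3p: uGCAUGACccuucccuccccac

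MIR222 and MIR221 are neighbours on chromosome X within MIR222HG. The MIR222 window (chrX:45746965-45747064), annotated as intron of MIR222HG, had 68 IP and 2 input counts at 4.86 (2.79 and 6.92). That of MIR221 had 27 and 5 at 2.51 (2.01 and 3.02). These windows covered 50 and 55 of the 110 bases of each hairpin, with the 3p arm inside. The whole MIR16-1 hairpin in DLEU2 (chr13:50048973-50049061) had 86 and 4 at 3.93 (3.02 and 4.84). A window over the start of MIR16-2, which gives the same mature miRNA, had 64 and 8 at 2.94 (1.46 and 4.42) and covered 11 of the 22 bases of miR-16-5p. MIR6797 (chr19:41869627-41869698) had 1523 and 68 at 3.48 (3.09 and 3.88), the most counts of these hairpins. Apart from MIR6797, these windows held fewer than 10 input counts, and their replicate values overlapped.

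tRNAs held the largest share of counts in the repeat table, at enrichments above its median. Of its 252 elements, 175 were simple repeats and 35 were tRNA families, and these 35 held 337895 of 690414 IP counts (48.9%). The tRNA families had a median of 2.30, against 1.51 for simple repeats and 0.89 for the 33 other interspersed or satellite elements. Their replicates lay further apart, by a median of 0.92 against 0.31 over all elements, with medians of 1.62 and 2.72 for the lower and higher value. tRNA-Thr-ACY was the highest, with 8296 IP and 548 input counts at 3.39 (2.57 and 4.22). tRNA-His-CAY_ had 8020 and 636 at 3.03 (2.81 and 3.25). tRNA-Ser-TCA(m) stood at 2.83 and tRNA-Gly-GGA at 2.66 (2.57 and 2.75). tRNA-Asp-GAY had most counts, 72034 IP and 10208 input, at 2.40 (1.95 and 2.86), followed by tRNA-Lys-AAG with 35417 and 4402 at 2.45.

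Families of 1 amino acid did not behave alike. The 6 serine families ran from 1.49 to 2.83, the 6 arginine families from 1.28 to 2.63 and the 2 leucine families stood at 0.92 and 2.59. Initiator methionine tRNA, tRNA-Met-i, had 10372 and 2219 counts at 1.66 (1.15 and 2.16). Its replicate values lay below both values of tRNA-Met, which stood at 2.58 (2.38 and 2.77), and overlapped those of tRNA-Met_ at 1.47 (1.05 and 1.89). Many other neighbours in this order overlapped in their replicate values.

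**Figure D5:**
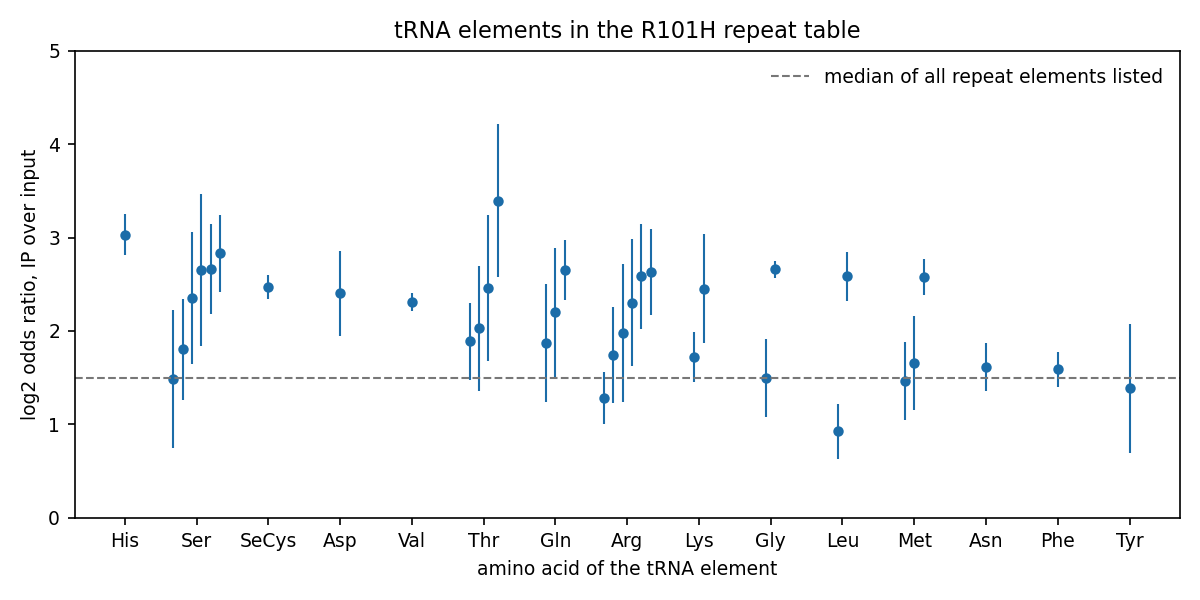
Log2 odds ratio of R101H IP over input for the 35 tRNA families in the repeat table, by amino acid in the order of their medians. Points are means and lines join both replicate values. The dashed line is the median of all 252 elements. Above it lie 29 families.

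Small nuclear RNA U6, a core part of the spliceosome, had the most IP counts of all elements, 108717 against 30760 input counts, at 2.00 (1.67 and 2.33). U7, which acts in histone mRNA 3′ end formation, had 530 and 98 counts, and the nucleolar U8 14127 and 8381 at 0.88. The low end of the table held elements derived from transposons and an endogenous retrovirus, with HERVH-int at 0.46, L1ME5_AS at 0.46, Tigger10 at 0.53, L1PA2 at 0.53 and L1MDb at 0.56. The GA-rich and G-rich low complexity elements had 32066 and 27425 IP counts at 0.76 and 0.83.

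Simple repeats are shown by their unit, as the deposited table names them. The highest, (CCCATC)n, had 55 IP and 0 input counts at 5.40 (5.38 and 5.43), which is at least 18.3-fold over a floor of 3 counts. The next had few counts as well, with 68 IP and 2 input counts in (ACCGCC)n, and with (GCCGCCT)n at 3.90 from 96 and 6, (GGATTT)n at 3.87 from 31 and 2, and (TCCTCGTCC)n at 3.75 from 203 and 7. Better counted was (AGATGA)n, with 1014 and 134 at 3.24 (3.04 and 3.44). The 10 elements of A and G alone had a median of 1.72, the 47 of C and T alone 1.48 and the 25 of G and T alone 1.18. Several of these elements can be registers of the same unit. All 3 registers of the AAG unit were listed, at a median of 2.31 with 498 IP and 137 input counts. The 2 registers listed of its complement had a median of 1.43 with 439 and 195.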

How the data were processed

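The 2 R101H tables, of windows and of repeat elements, were analysed as deposited. Reads had been trimmed with fastp and aligned with STAR to GRCh38, per the submitters' processing notes. The window caller, all versions and which inputs entered the list were not stated there. Per the file headers, the authors deposited IP and input read counts summed over replicates, the fraction of G and C, the log2 odds ratio (lowest, mean, highest), p-values and q-values (lowest, highest) and the number of replicates with enrichment. No column holds a single replicate or a library total, so no test between samples was fitted and depth is unknown. Reads without known molecular identifiers are not independent molecules, so intervals and floors cover counting error only.

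Annotations were grouped into 8 classes, touching windows on a strand were joined into runs, and shares were given exact Clopper-Pearson 95% intervals. Both steps were tested on simulated data. Named items were the extremes by value, count, run length and replicate spread, and the leading members of 14 gene lists. Some items that this rule names are not reported here. Members absent under their name were looked up among RefSeq synonyms, and ENP1 and EFTUD1 matched no single gene. Members and lists were chosen with earlier results of these data known. Transcript starts and miRNAs came from RefSeq GRCh38.p14, with chromosome 8 not analysed here. Alternatives were filters on input counts, IP counts and q, 1 window per gene, other class groupings, single replicate values and the ratio of counts. Python 3.11.15, pandas 2.3.3, numpy 2.4.6, scipy 1.17.1 and matplotlib 3.10.9 were used.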

Additional observations from a re-analysis of the deposited data

How the results depend on the processing

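Of 98 values recomputed under 10 settings, 64 stayed within a set tolerance and 34 did not. The tolerance was 1.5 times for a number of windows, genes or elements, the exact 95% interval for a share, and 0.37, the median replicate SD of a window, for a median. The number of genes fell from 8133 to 6077 with at least 10 input counts and to 5672 with a highest q of at most 0.05, both within that tolerance. With 1 window per gene, 8113 windows remained, with shares of 45.1% coding, 33.8% 3′ UTR, 10.6% 5′ UTR and 3.80% intronic, and 0.148% beside another listed window. With at least 10 input counts, 52354 windows gave 58.4%, 27.5%, 4.75% and 4.20% in that order, 48.4% beside another, and an intronic median log2 odds ratio of 1.63. With at least 50 IP counts, 44941 windows in 4868 genes gave 59.0%, 25.6%, 5.57% and 4.43%, and 55.5% beside another. With a highest q of at most 0.05, 43148 windows gave 55.0%, 29.3%, 3.55% and 6.77%, 47.4% beside another, and an intronic median of 2.74. Without pseudogenes and small RNA genes the coding, 3′ UTR and intronic shares were 54.7%, 26.8% and 10.5%, and with splice site windows counted apart introns had 3.87%. The lower replicate value gave an intronic median of 1.89. The log2 ratio of pooled counts, an alternative chosen after seeing the data, gave 2.13 in the 5′ UTR and 1.78 in introns. Beyond these constructions, the cause was not tested.

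No paired analysis was possible because the tables hold no column for a single replicate. No replicate was left out by name, and the lower and higher replicate values stand in for that. Library depth is unknown, and 43.9% of windows had fewer than 10 input counts, which limits how well a single window's enrichment is known.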

Other observations

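Families of nearly identical gene copies, chosen after their values were seen, stood above the median of the list. The 12 NBPF genes, which carry repeated Olduvai domains, had 795 windows with a median log2 odds ratio of 3.65, of which 320 were intronic. The 8 NPIP genes had 170 windows at 3.51, and the 6 PKD1P entries, copies of the polycystin gene PKD1, had 336 at 3.23. The median over all windows was 2.00. With at least 10 input counts the NBPF median was 1.95, from 54 of the 795 windows, against 3.03 for NPIP, 3.08 for PKD1P and 1.66 over all such windows. At 50 to 100 IP counts the medians were 3.72, 3.46 and 2.81, against 1.83. Median input counts were 3, 8 and 10 in these families against 11 in the list, and reads of near-identical copies may have been divided between them in counting. The part of either in these values was not tested.

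The window lists differ in size, with 93331 windows for R101H, 15402 for WT and 86567 for R62W, and 33002 of the R101H windows (35.4%) were in neither other list. In the other direction, 72.0% of the WT windows and 69.2% of the R62W windows were in the R101H list. Of the 8133 named genes, 886 had windows in the R101H list and none in the WT and R62W lists, with 1376 windows, and 580 of them had 1 window. L3MBTL3, PDLIM1 and ZCCHC2 had 8 windows each, at medians of 2.36, 1.16 and 2.82, followed by GATA4 and OSBPL3 with 6 each, at 2.33 and 2.24. A highest q of at most 0.05 was reached by 1, 4, 1, 1 and 0 windows of these genes in that order, against 46.2% of the whole list. A gene missing from a list was not measured as 0, and no difference between the proteins was tested for these genes. R101H had 2 IP libraries, WT and R62W had 3 each, and library depth is unknown. The comparisons between lists were not adjusted for either.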
